A study of Mus musculus with 2 samples.

Results

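Glutamate and GABA receptors are the main receptors for excitatory and inhibitory transmission in the hippocampus, and their subunit genes are described here across its cell classes. Gene symbols were matched by family name, covering AMPA (Gria), kainate (Grik), NMDA (Grin) and metabotropic (Grm) glutamate receptors and GABA-A (Gabr) and GABA-B (Gabbr) receptors. Of 32285 genes in the files, 45 symbols matched, and the 37 with at least 20 UMIs over both libraries are the members. A UMI, a unique molecular identifier, tags 1 captured RNA molecule. The members are 22 glutamate receptor genes (4 AMPA, 5 kainate, 6 NMDA and 7 metabotropic) and 15 GABA receptor genes (13 GABA-A and 2 GABA-B). The 8 left out were Grin3b with 16 UMIs, Gabrq with 13, Gabre with 10, Gabrr1 with 2, Gabra6 with 1, and Grm6, Gabrp and Gabrr3 with 0.

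The groups are WT, C57BL6/J mice, and 60TM, a line on that background labelled GFAP-hGFAP, that is, with a human GFAP transgene, made to model Alexander disease, in which astrocytes accumulate GFAP. Mice of both groups were 7 weeks old, and dissociated hippocampi of 3 mice per genotype gave 1 library per genotype, with no map from cells to mice used here. With 1 library a group no difference could be tested. All intervals are exact 95% intervals, which cover counting error only and not the spread between mice.

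After filtering, 6086 WT cells and 7574 60TM cells remained, with medians of 7212 and 7494.5 UMIs per cell. The libraries shared 20 barcodes, 14 of them among the cells kept. As a check of the labels, Gfap in astrocytes stood at 274.7 CPM (counts per 1000000 UMIs of the class) in WT and 1221 in 60TM. Cells were clustered with the subunit genes left out of the variable genes, so that the clusters do not rest on the values described, and clusters were named from fixed markers. Each library had 50 or more cells in 14 classes, among them 863 WT and 1698 60TM astrocytes, 105 and 171 oligodendrocyte precursor cells (OPCs), 1418 and 764 oligodendrocytes, and 69 and 91 neurons. A shared marker profile does not establish a cell type. Few mature neurons were found after papain dissociation, and the part of dissociation in this was not tested.

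AMPA, kainate and NMDA receptors are tetramers that open an ion channel when glutamate binds, while metabotropic receptors signal through G proteins: group I, which includes Grm5, raises calcium, and groups II and III lower cyclic AMP. GABA-A receptors are chloride channels of 5 subunits, commonly of alpha, beta and gamma type. GABA-B receptors are G-protein-coupled pairs of Gabbr1, which binds GABA, and Gabbr2, which couples to the G protein. Glia carry such receptors too, and astrocytes respond to transmitter released at synapses.

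Subunit mix matters for the ions a channel lets through, and a single codon of the pore loop accounts for much of it. The coding sequences around that codon are shown for the 4 AMPA members and for 3 NMDA members that lead or pair with the leading gene in the glial classes below, with the codon in capitals.
Gria1: ggggccttcatgCAGcaaggatgtgac
Gria2: ggtgcctttatgCAGcaaggatgcgat
Gria3: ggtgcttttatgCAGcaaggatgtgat
Gria4: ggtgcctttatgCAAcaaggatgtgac
Grin1: ggcgtcctgctcAACtctggcattggg
Grin2c: gcactggtcttcAACaactctgttccc
Grin3a: gcccttctgtttGGCagaacagcagcc
They come from the GENCODE M21 transcripts on GRCm38 and read 5′ to 3′ along the coding strand. The AMPA codons lie at chr11:57243094-57243096 (Gria1, plus strand, exon 11), chr3:80706911-80706913 (Gria2, minus strand, exon 11), chrX:41610265-41610267 (Gria3, plus strand, exon 11) and chr9:4464137-4464139 (Gria4, minus strand, exon 12). The NMDA codons lie on the minus strand at chr2:25297386-25297388 (Grin1, exon 14), chr11:115253863-115253865 (Grin2c, exon 9) and chr4:49770584-49770586 (Grin3a, exon 3). All 4 AMPA genes encode glutamine here. In Gria2 this is the Q/R site, where RNA editing changes the glutamine to arginine, so that AMPA receptors with Gria2 pass little calcium. UMI counts carry no base calls, so editing was not measured. The NMDA genes Grin1 and Grin2c encode asparagine, part of the site where magnesium blocks the channel, and Grin3a encodes glycine.

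Levels are given as CPM of the class in each library. UMIs of 3′ ends count molecules and are not divided by gene length, although capture can differ between genes. A gene belongs to the subunit set of a class when, in each library, it reached 5 CPM and its interval lay above that in microglia. Microglia serve as the background of free RNA in the droplets, although not all of their UMIs need be free RNA. They held Gabbr1 at 53.4 and 49.0 CPM, so a class near that level does not have Gabbr1 in its set. All members together summed to 11394 CPM in WT neurons and 10257 in 60TM neurons. OPCs followed with 3275 and 3235 CPM, astrocytes with 2825 and 2217, and immature neurons with 2621 and 2232. Microglia, the largest class, held 81.3 and 87.3 CPM.

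The set held 34 of 37 members in neurons, 26 in OPCs, 18 in Cajal-Retzius cells (early-born Reln-expressing neurons), 17 in astrocytes and 17 in immature neurons. The neuron set counts Grin2c on 7 and 10 UMIs, Gabrg1 on 5 and 17 and Grm3 on 10 and 22, all highest in astrocytes. Summed astrocyte markers in neurons were 794.4 and 944.1 CPM, and the part of astrocyte RNA in these calls was not tested. Radial glia-like cells had 13, committed oligodendrocyte precursors 11, dividing cells 11 and oligodendrocytes 9. Pericytes and choroid plexus cells had 3 each and endothelial cells 1. Microglia and border macrophages had none. In microglia this was judged against oligodendrocytes, which hold more Gabbr1 (53.4 and 49.0 CPM in microglia, 188.9 and 190.0 CPM in oligodendrocytes). Across classes, 36 members were in some set and 18 in at least 5 sets. Grm4 was in none. Grin2a (an NMDA subunit of mature synapses), Gabra5 and Gabrd (subunits of extrasynaptic GABA-A receptors) were in the neuron set alone, Gabrr2 in that of oligodendrocytes alone and Grm8 in that of choroid plexus cells alone. Neurons had the highest level of 25 members in both libraries, OPCs of 5, astrocytes of 4 and oligodendrocytes of 1. The remaining 2, Grm2 and Grm8, had a different first class in each library. The first class stood clear of the next by its interval in both libraries for 27 members.

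**Figure D1:**
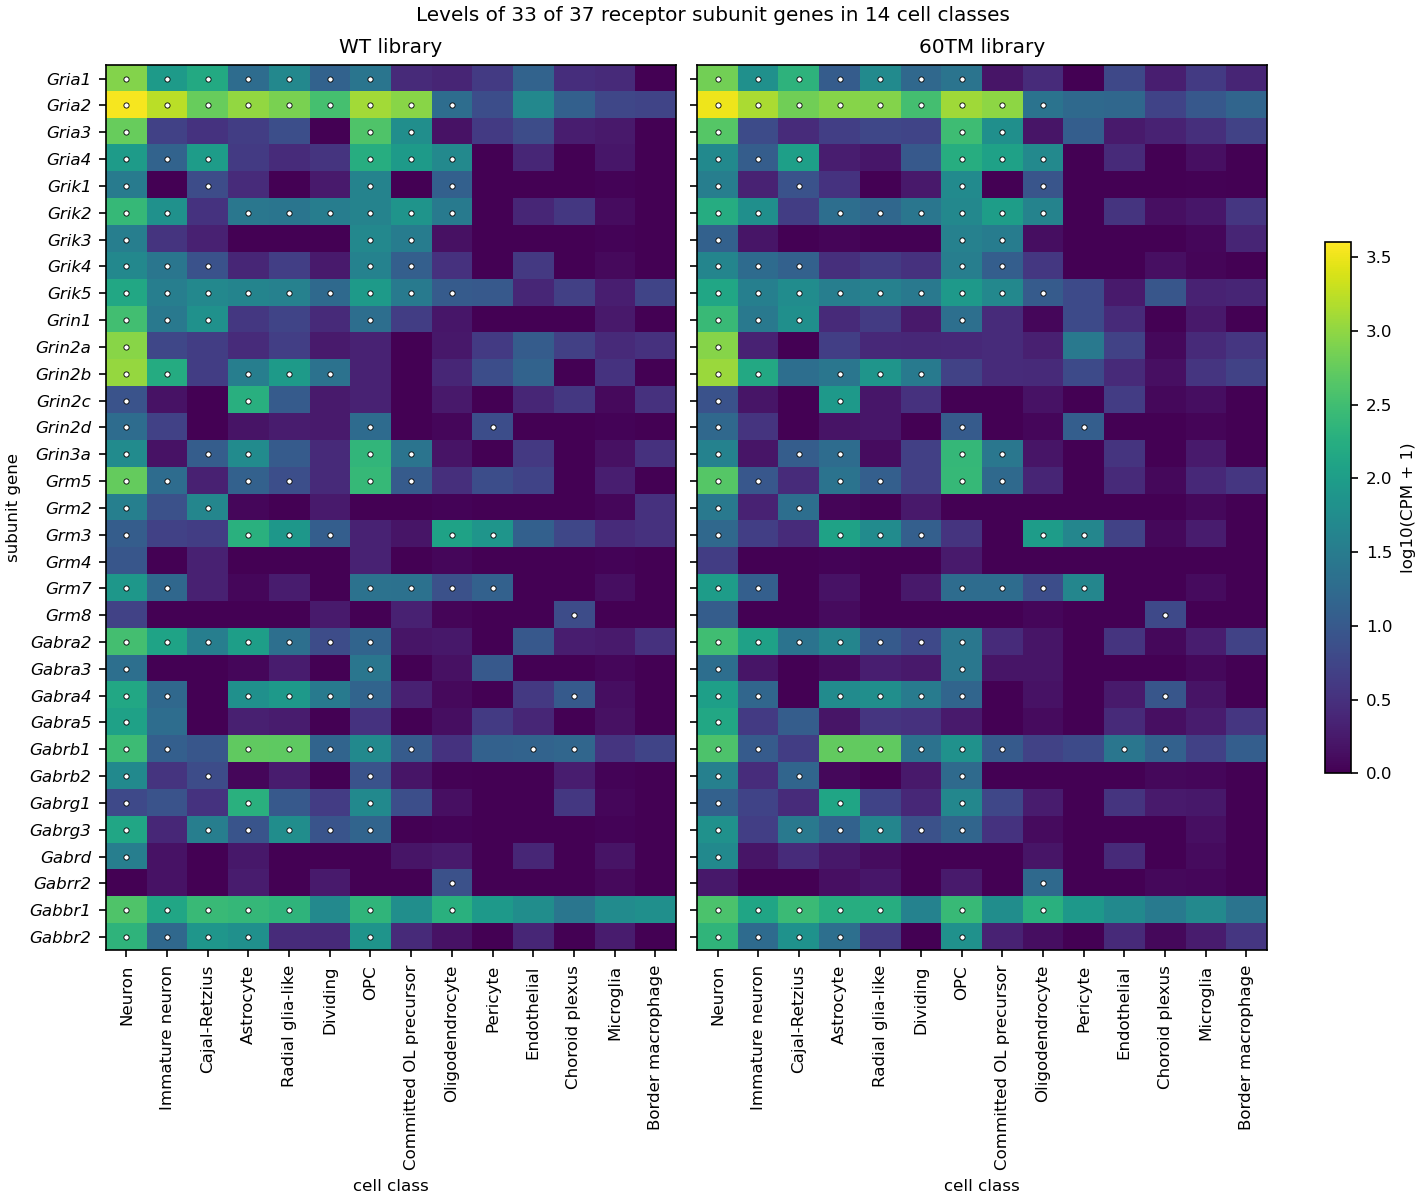
Levels of 33 of the 37 subunit genes (rows) in 14 cell classes (columns) as log10(CPM + 1), WT on the left and 60TM on the right; white dots mark the subunit set of a class. Neurons hold the most dots in this plot and microglia none, and Gria2, Gabrb1 and Gabbr1 are the brightest rows in astrocytes.

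Leading members of each set show how the classes differ. In neurons Gria2, Grin2b and Grin2a were followed by Gria1 (847.3 and 671.9 CPM), Gria3 (587.7 and 448.2 CPM) and Grm5. Immature neurons led with Gria2 (1678 and 1410 CPM), then Grin2b (162.7 and 148.7), Gabbr1 (132.6 and 127.7), Gabra2 (122.3 and 112.9) and Gria1 (89.2 and 62.3). Cajal-Retzius cells led with Gria2 (582.6 and 667.6 CPM), Gabbr1 (277.3 and 281.4), Gria1 (155.0 and 209.7), Gria4 (96.7 and 106.6) and Gabbr2 (75.7 and 68.2). The neuronal classes thus shared Gria2 as first gene but not what came after it. Radial glia-like cells led with Gria2 (753.0 and 862.6 CPM), Gabrb1, Gabbr1, Grin2b (91.6 and 75.4), Gabra4 (85.3 and 58.8) and Grm3 (79.0 and 53.5). Committed oligodendrocyte precursors led with Gria2 (925.4 and 974.1 CPM), Gria4 (91.3 and 113.7), Grik2, Gria3 (59.7 and 60.7), Grik5 and Grik3. Within the set these leading genes were all AMPA or kainate genes. Gabbr1 stood at 59.2 and 57.2 CPM in committed precursors, but its interval was not above that of microglia (53.4 and 49.0 CPM). Dividing cells, which can belong to any lineage, held Gria2 at 343.3 and 336.1 CPM, and Gabra4, Grik2, Grin2b and Grik5 between 15.99 and 32.8 CPM. Gabbr1, again outside the set, stood at 48.0 and 38.9 CPM in dividing cells.

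Among AMPA subunits, Gria2 was the most abundant member in neurons, OPCs and astrocytes. Gria2 stood at 3569 CPM (3451 to 3690) in WT neurons and 3275 (3182 to 3370) in 60TM neurons. In OPCs it stood at 1260 (1185 to 1339) and 1215 (1154 to 1279). In astrocytes it stood at 1024 (998.3 to 1051) in WT and 879.9 (864.7 to 895.2) in 60TM. Microglia held 4.8 CPM in WT and 8.82 in 60TM, far below each of these classes.

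Gria2 did not take the same part of AMPA UMIs in each class. It took 97.7% (97.3 to 98.1) of AMPA UMIs in WT astrocytes and 98.3% (98.1 to 98.5) in 60TM astrocytes. Immature neurons had 94.1% and 94.7%, and radial glia-like cells 93.1% and 93.8%. In OPCs the Gria2 part was lower, 67.3% (64.9 to 69.7) in WT and 70.9% (68.9 to 72.8) in 60TM, with Gria3 at 22.0% and 17.6% and Gria4 at 9.41% and 10.1%. Neurons had 70.0% and 73.7%, with Gria1, the subunit tied to activity-dependent insertion at synapses, at 16.6% and 15.1%. The oligodendrocyte lineage changed from stage to stage in both libraries. Committed precursors had 85.8% and 84.8% Gria2, whereas in oligodendrocytes Gria4 took 70.9% (68.6 to 73.1) in WT and 66.4% (63.4 to 69.3) in 60TM and Gria2 only 26.3% and 30.4%. The AMPA levels there were low: Gria4 stood at 48.7 and 48.9 CPM and Gria2 at 18.1 and 22.3 CPM. Gria4 was highest in OPCs, at 176.0 and 173.5 CPM, and was 3.15 and 0.959 CPM in astrocytes.

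Kainate subunits were spread over neurons and the oligodendrocyte lineage. Grik5, which needs a partner subunit to form a channel, was in 9 sets and was highest in neurons (141.2 and 136.1 CPM) and OPCs (91.6 and 85.5 CPM). OPCs had all 5 kainate genes in their set, with Grik5 at 35.7% and 33.4% of kainate UMIs and each of the others between 13.4% and 20.4%. Committed precursors and oligodendrocytes leaned to Grik2, with 126 of 252 and 168 of 319 kainate UMIs in the former and 54.2% and 65.7% in the latter. Grik1 stood at 39.8 CPM (27.4 to 55.9) and 52.1 (40.2 to 66.6) in OPCs and at 30.1 and 33.7 in neurons. Those neighbours did not differ beyond their intervals. Astrocytes held Grik5 (41.8 and 34.1 CPM) and Grik2 (25.5 and 19.2 CPM).

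NMDA receptors need Grin1 together with Grin2 or Grin3 subunits. Neurons held all 6 members, with Grin2b at 1058 and 1142 CPM, Grin2a at 902.3 and 874.6 and Grin1 at 326.0 and 271.4. Grin2c was the lowest of them, on the 7 and 10 UMIs given above. Immature neurons had Grin2b at 94.6% (91.6 to 96.7) and 97.2% (94.3 to 98.9) of Grin2 UMIs. Grin2b is the early form that Grin2a joins as neurons mature. Cajal-Retzius cells held Grin1 at 65.2 and 61.2 CPM, with only 6 and 11 Grin2 UMIs in all.

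In astrocytes Grin2c was the leading NMDA gene. Grin2c stood at 188.0 CPM (176.9 to 199.6) in WT and 88.1 (83.4 to 93.1) in 60TM. It was 7.27 and 7.01 CPM in neurons and 0.225 and 0.372 CPM in microglia. Grin2c took 84.1% of Grin2 UMIs in WT astrocytes and 75.2% in 60TM, with Grin2b at 14.9% and 21.2%. Grin1 was not in the astrocyte set: it had 16 UMIs in WT and 25 in 60TM, or 2.80 CPM (1.60 to 4.54) and 1.71 (1.11 to 2.53), against 0.750 (0.360 to 1.38) and 0.744 (0.407 to 1.25) in microglia. Of 527 WT astrocytes with a Grin2c UMI, 12 had a Grin1 UMI, 2.28% (1.18 to 3.94), and of 797 60TM astrocytes 15 did, 1.88% (1.06 to 3.08). Among astrocytes without a Grin2c UMI the shares were 0.893% and 1.11%. In neurons, 46 of 60 WT cells (76.7%) and 73 of 87 60TM cells (83.9%) with a Grin2b UMI also had a Grin1 UMI. Among neurons without a Grin2b UMI, few in number, the shares were 22.2% and 50%. Median depth was 4645 UMIs in WT neurons and 6205 in WT astrocytes. Depth was uneven among neurons, as 69 WT neurons held 963048 UMIs and 863 WT astrocytes 5723445. Its part in these shares was not tested.

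OPCs were the class with the most Grin3a, whose receptors are known for weak magnesium block and low calcium entry. Grin3a stood at 236.3 CPM (204.4 to 271.8) in WT OPCs and 249.3 (222.1 to 278.8) in 60TM OPCs, above astrocytes (53.6 and 17.7 CPM) and neurons (53.0 and 38.6 CPM). It took 85.6% (80.4 to 89.9) and 87.7% (83.8 to 90.9) of NMDA UMIs in OPCs and 87.0% and 82.7% in committed precursors, on 40 and 43 UMIs. Grin1 in OPCs was 19.3 and 19.6 CPM, and 10 of 80 WT OPCs (12.5%) and 18 of 124 60TM OPCs (14.5%) with a Grin3a UMI also had a Grin1 UMI. Among OPCs without a Grin3a UMI, few in number, the shares were 16% and 6.38%. In oligodendrocytes Grin3a was 0.558 and 0.578 CPM, and no NMDA gene was in their set. Radial glia-like cells differed from astrocytes: Grin2b took 76.1% and 92.0% of their NMDA UMIs, and Grin2c stood at 9.87 and 0.653 CPM and Grin3a at 9.87 and 0.327 CPM.

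Metabotropic receptors also sorted by class. Grm5 was highest in neurons (562.8 and 451.0 CPM), followed by OPCs (254.4 and 257.4 CPM). In astrocytes Grm5 was 12.1 CPM in WT and 22.5 in 60TM. Grm3 was highest in astrocytes, at 194.5 CPM (183.2 to 206.2) in WT and 115.8 (110.4 to 121.5) in 60TM, and second in oligodendrocytes, at 118.4 (114.0 to 122.9) and 97.8 (92.7 to 103.1). It was 1.21 and 2.44 CPM in OPCs and 0.574 and 0 in committed precursors, so that within the oligodendrocyte lineage the mature class alone had it in its set. Grm2, the other group II gene, took 92.7% of group II UMIs in WT Cajal-Retzius cells, on 38 of 41 UMIs, and 91.7% in 60TM, on 11 of 12 UMIs. In the group III gene Grm7, neurons stood at 80.0 and 95.4 CPM. Choroid plexus cells had Grm8 at 5.76 and 5.19 CPM.

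**Figure D2:**
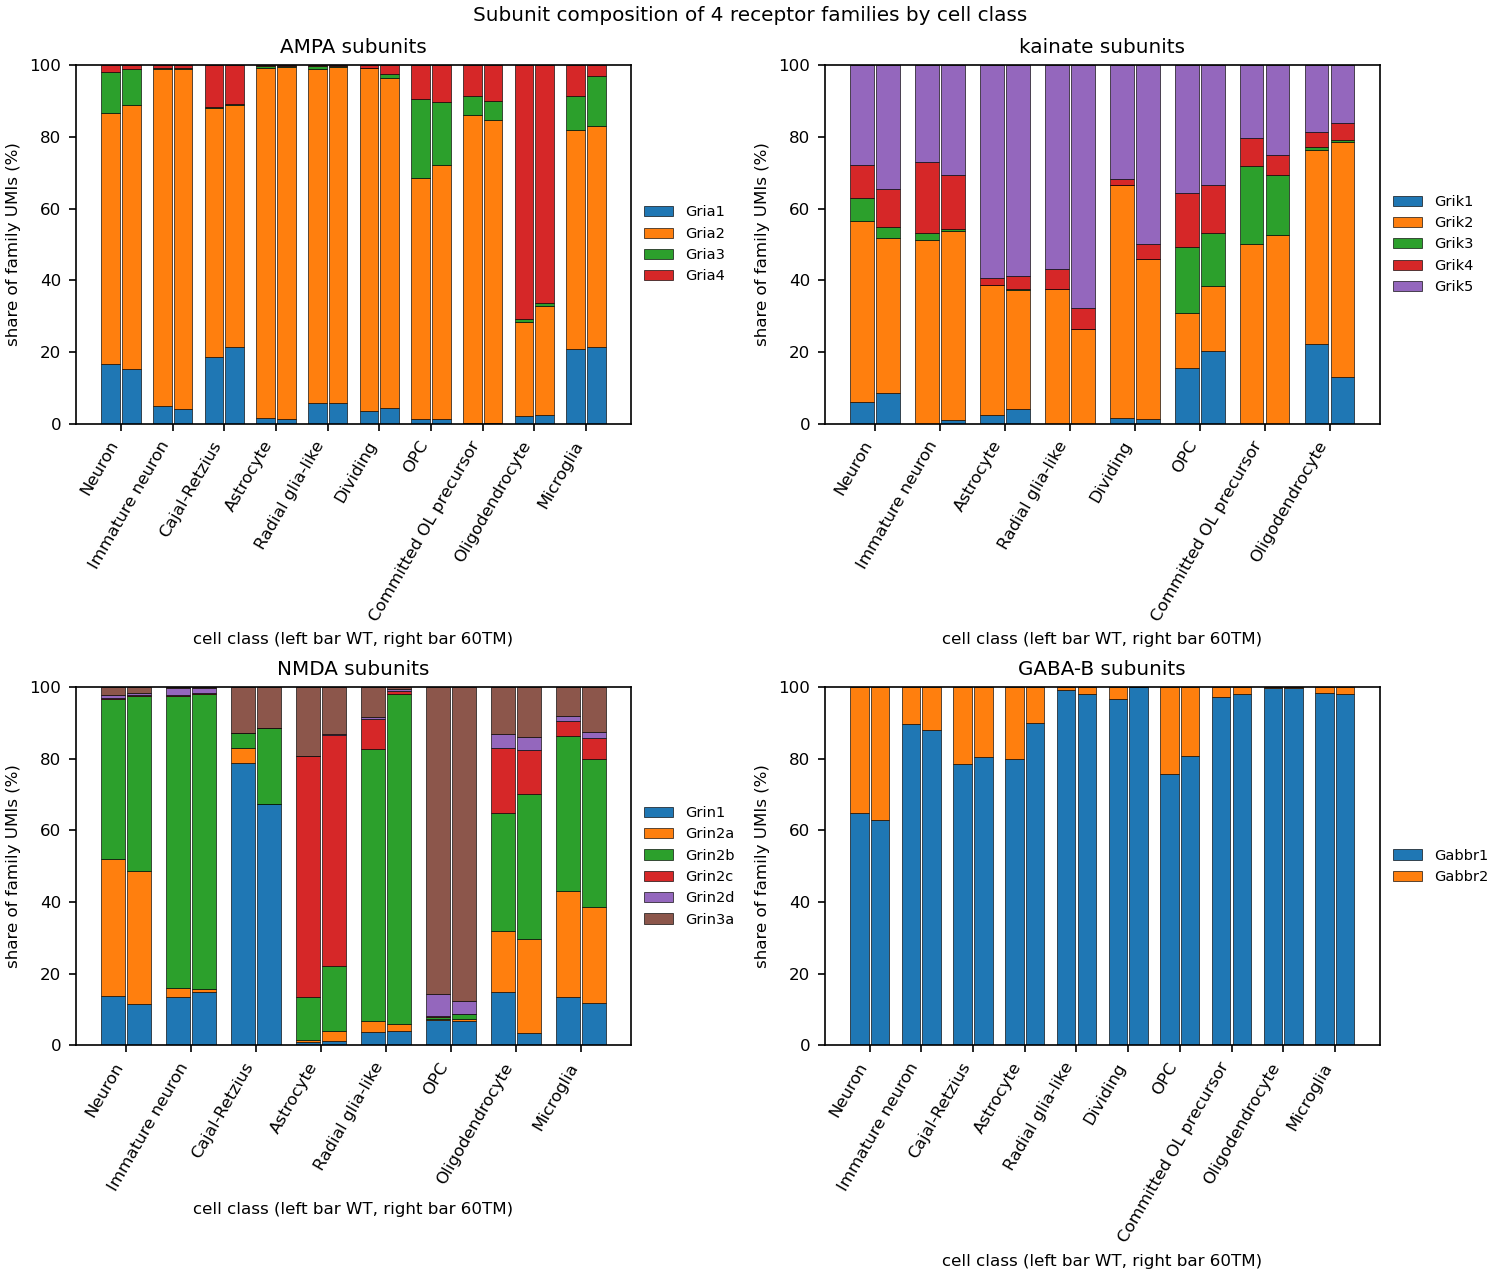
Share of each subunit (colours) in the UMIs of its family, in percent, for AMPA, kainate, NMDA and GABA-B genes; bars are cell classes with at least 50 family UMIs in each library, WT left and 60TM right. Gria4 takes 70.9% of AMPA UMIs in WT oligodendrocytes, and Grin3a takes 85.6% of NMDA UMIs in WT OPCs.

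Gabrb1, a beta subunit, was highest in astrocytes, at 531.0 CPM (512.3 to 550.2) in WT and 545.6 (533.7 to 557.7) in 60TM, and next in radial glia-like cells, at 504.4 (463.6 to 547.9) and 533.5 (507.9 to 560.0). These neighbours did not differ beyond their intervals. Gabrb1 took 98.7% and 98.8% of beta UMIs in astrocytes, while neurons had 48.6% and 55.3% and OPCs 34.2% and 32.4%. Gabrg1 made up 95.8% (94.4 to 96.9) of gamma UMIs in WT astrocytes and 90.6% (89.3 to 91.9) in 60TM. In radial glia-like cells the leading gene was Gabrg3, at 86.5% and 88.9% of gamma UMIs.

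Alpha subunits followed the same classes. Astrocytes held Gabra2 and Gabra4, which in WT took 61.1% (57.9 to 64.2) and 37.6% of alpha UMIs and in 60TM 42.6% (40.1 to 45.2) and 54.7%. In radial glia-like cells Gabra4 took 78.5% and 80.7%. Immature neurons leaned to Gabra2 at 77.5% and 85.5%. OPCs held a wider mix, with Gabra2 at 17.5% and 27.4%, Gabra3 at 33.3% and 27.4% and Gabra4 at 17.5% and 14.5% of 63 and 117 alpha UMIs. The alpha gene Gabra3 was highest in OPCs, at 25.3 and 26.1 CPM.

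For GABA-B receptors, Gabbr1 was in 7 sets and Gabbr2 in 5. The Gabbr1 count is limited by its level in microglia. Endothelial cells (56.5 and 50.5 CPM) and pericytes (85.6 and 81.3 CPM), among others, held Gabbr1 outside their sets. Neurons had Gabbr1 at 402.9 and 379.5 CPM and Gabbr2 at 217.0 and 223.7. Cajal-Retzius cells and OPCs also held both genes, with Gabbr2 at 19.3% to 24.3% of GABA-B UMIs. Oligodendrocytes held Gabbr1 at 188.9 and 190.0 CPM but Gabbr2 at 0.516 and 0.361, from 12 and 5 UMIs. Radial glia-like cells likewise had Gabbr2 at 1.80 and 3.27 CPM beside Gabbr1 at 218.1 and 172.4. Astrocytes as a class differed from them, with Gabbr2 at 62.2 CPM in WT and 19.4 in 60TM. Within astrocytes Gabbr2 differed between clusters, described below, and was 2.77 CPM in the 60TM cells of 1 of them.

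Pericytes, endothelial cells and choroid plexus cells had few subunit UMIs. Gabrb1 was 13.04 and 25.2 CPM in endothelial cells and 14.4 and 12.1 in choroid plexus cells. Summed astrocyte markers were 1461 and 2148 CPM in endothelial cells and 395.7 and 335.2 in choroid plexus cells. As Gabrb1 is highest in astrocytes, the part of astrocyte RNA in these levels was not tested. The pericyte class is a single cluster that passed all 8 pericyte markers but was led by Col1a2, a fibroblast marker, and Slc6a13. With no doublets removed a like cluster scored highest for fibroblast markers and stayed unnamed, so the name is uncertain. Grm3 in this class was 73.3 and 43.4 CPM on 24 and 8 UMIs, in a class where summed astrocyte markers were 6246 and 9487 CPM, and their part in Grm3 was not tested. The set call of Grin2d in pericytes rests on 2 UMIs in each library. Interneuron progenitors and ependymal cells had under 50 cells in 1 library and were given no set. Gria2 was 1269 and 975.0 CPM in the former (40 and 51 cells), and Gabrb1 was 93.0 and 137.3 CPM in the latter (131 and 41 cells).

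In astrocytes, the cells known for GFAP, the question is which subunits differ between 60TM and WT. Counted were the 17 members with at least 100 UMIs over both libraries, which happen to be the 17 genes of the astrocyte set. Of these, 6 were at least 1.5-fold lower in 60TM, where 6.44% of all 10369 genes with as many UMIs were: Gria1, Grin2c, Grin3a, Grm3, Gabra2 and Gabbr2. At least 1.5-fold higher were 2, Grm5 and Gabrg3, where 5.41% of all genes were. At 2-fold, 4 were lower (1.01% of all genes) and none of the 17 was higher (2.56% of all genes). The interval lay below 1 for 13 of the 17 and above 1 for 2. The share of all genes with such intervals is not given here, and intervals narrow as UMIs rise. These interval counts thus have no background to be read against. The median log2 ratio was -0.43 over the members and -0.08 over all genes. Because of the single library per genotype, these counts describe the 2 libraries and not the genotypes.

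The members with the lowest ratios were Gabbr2, Grin3a, Gabra2 and Grin2c. Gabbr2 went from 62.2 CPM (356 UMIs) in WT to 19.4 (284 UMIs) in 60TM, a ratio of 0.313 (0.267 to 0.366). Grin3a went from 53.6 to 17.7 CPM, a ratio of 0.329 (0.278 to 0.390). Gabra2 went from 103.4 to 42.0 CPM, a ratio of 0.406 (0.362 to 0.455), while its family partner Gabra4 went only from 63.6 to 53.8 CPM, a ratio of 0.846 (0.746 to 0.961). Grin2c had a ratio of 0.469 (0.432 to 0.509), Grm3 of 0.596 (0.552 to 0.643) and Gria1 of 0.586 (0.452 to 0.761). For each of these 6 the intervals of the levels in the 2 libraries did not overlap. As the 6 were picked by their ratios, this adds no support, and the share over all genes is not given.

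Smaller differences were seen in Gabrg1, with a ratio of 0.672 (0.624 to 0.725), Gabbr1 at 0.703 (0.659 to 0.751), Grin2b at 0.745 (0.623 to 0.892), Grik2 at 0.754 (0.615 to 0.928), Grik5 at 0.817 (0.698 to 0.957) and Gria2 at 0.859 (0.833 to 0.886). The ratio of Gabrb1 was 1.03 (0.985 to 1.07). Grm5 went from 12.1 CPM (69 UMIs) to 22.5 (329 UMIs), a ratio of 1.87 (1.44 to 2.46). Gabrg3 went from 7.51 to 12.5 CPM, a ratio of 1.67 (1.19 to 2.38).

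A further 7 members had 20 to 99 UMIs in astrocytes and get values only. Gria4 had 18 UMIs in WT and 14 in 60TM, a ratio of 0.305 (0.140 to 0.649), and Grin2a 10 and 53, a ratio of 2.08 (1.05 to 4.58). The intervals of Gria3, Grik1, Grik4 and Grin1 included 1. The remaining 13 members had 1 to 19 UMIs.

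Summed neuron markers were higher in the astrocytes of the 60TM library, mainly by Nrgn and Camk2a. All 9 neuron markers had UMIs in astrocytes of both, summing to 76.9 CPM in WT and 103.2 in 60TM, with Nrgn at 16.3 and 26.9 CPM and Camk2a at 7.16 and 19.7. Syp (10.8 and 8.83 CPM) and Syt1 (9.08 and 8.08 CPM) were lower in 60TM, and Snap25 stood at 10.3 and 10.5 CPM. A neuron marker UMI was found in 30.4% of WT and 38.6% of 60TM astrocytes. Without those cells Grm5, which is highest in neurons, had a ratio of 1.43 and Gabrg3 one of 1.94, and of 16 counted 6 were at least 1.5-fold lower (6.84% of all genes) and 1 higher (4.45% of all genes). The 10 astrocyte markers summed to 29781 CPM in WT and 22624 in 60TM. Their part in the lower ratios was not tested.

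**Figure D3:**
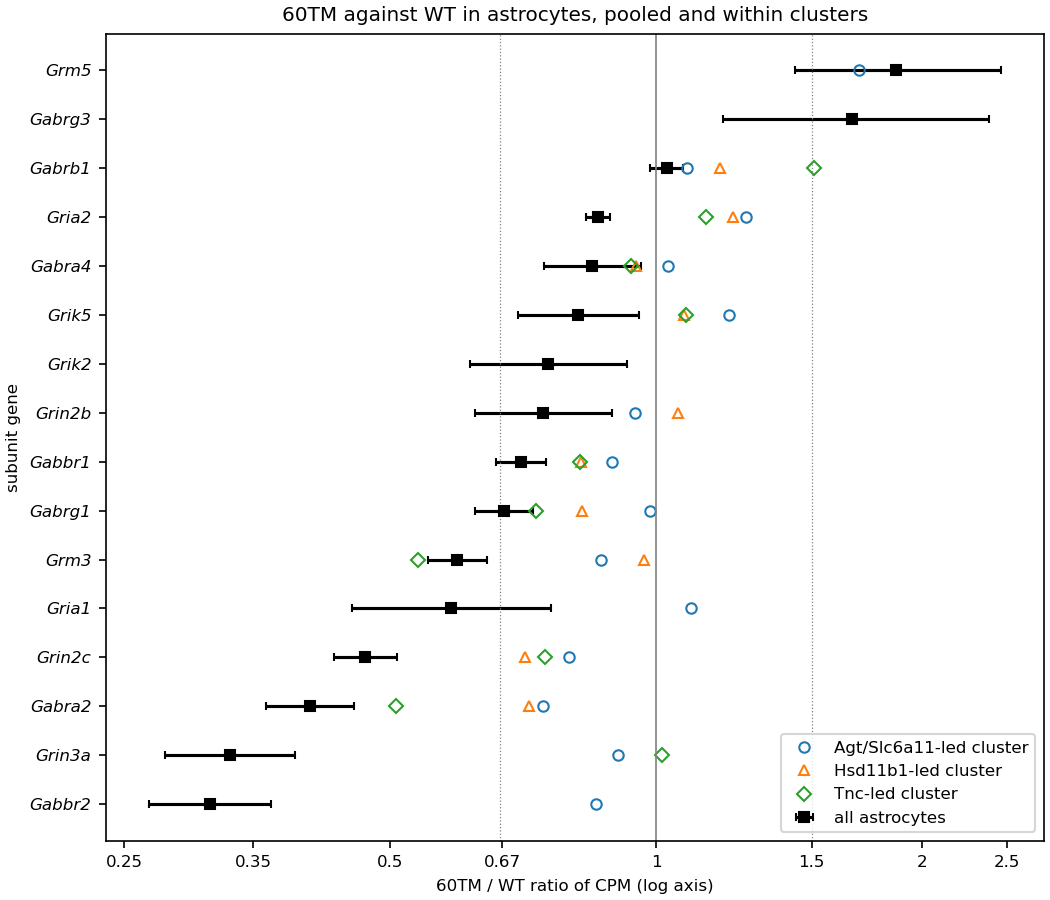
Ratio of CPM in 60TM over WT (log axis) for 16 of the 17 members counted in astrocytes; black squares are all astrocytes with 95% counting intervals, open symbols the ratio within 3 clusters where the gene had at least 100 UMIs, and dotted lines the 1.5-fold limits. The pooled ratio of Grin3a is 0.329 and its ratios within clusters are 0.907 and 1.02; that of Gria2 is 0.859 pooled and 1.14 to 1.26 within clusters.

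Different clusters held most astrocytes of each library, and the ratios within clusters were not the pooled ones. At the finer clustering nearly all astrocytes fell into 4 clusters, called here by leading genes. The Agt/Slc6a11 cluster held 41.8% of WT and 17.2% of 60TM astrocytes, the Tnc cluster 32.7% and 3.59%, and the Hsd11b1 cluster 22.7% and 27.5%. The Lcn2 cluster, also led by Serpina3n and Gfap, genes of reactive astrocytes, held 1.85% (16 cells) and 51.1% (867 cells). A cluster that comes almost wholly from 1 library may be that library and not a cell state.

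Gabbr2 and Grin3a levels differed between these clusters in both libraries. Gabbr2 stood at 121.9 CPM (108.5 to 136.4) in WT and 104.3 (91.3 to 118.6) in 60TM in the Agt/Slc6a11 cluster. It was 26.8 and 7.33 CPM in the Hsd11b1 cluster, 9.39 and 8.51 in the Tnc cluster, and 2.77 in 60TM cells of the Lcn2 cluster, whose WT cells had 0 UMIs. Slc6a11, a leading gene of the first cluster, encodes a GABA transporter. Grin3a was highest in the Tnc cluster, at 100.5 CPM (86.5 to 116.2) and 102.1 (71.5 to 141.4), followed by 41.2 and 37.3 in the Agt/Slc6a11 cluster and 11.04 and 5.50 in the Hsd11b1 cluster. In 60TM cells of the Lcn2 cluster it was 13.8 CPM. Grin2c was also highest in the Tnc cluster, at 269.0 (WT) and 201.4 CPM (60TM).

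Within clusters with at least 100 UMIs of the gene, Gabbr2 had a ratio of 0.856 (0.718 to 1.02) in the Agt/Slc6a11 cluster, and Grin3a ratios of 0.907 (0.670 to 1.22) there and 1.02 (0.690 to 1.46) in the Tnc cluster. In the Lcn2 cluster the Grin3a ratio was 0.398 (0.166 to 1.25), on 5 WT UMIs. On fewer UMIs, the Hsd11b1 cluster had a Gabbr2 ratio of 0.273 (0.155 to 0.475; 34 and 24 UMIs) and a Grin3a ratio of 0.498 (0.234 to 1.08; 14 and 18 UMIs). Gabra2 was lower in each of the 3 clusters other than the Lcn2 cluster, at 0.744 (0.604 to 0.915), 0.719 (0.559 to 0.929) and 0.508 (0.322 to 0.767). Grin2c was lower in the same 3, at 0.798, 0.712 and 0.749, with all 3 intervals below 1. In the Lcn2 cluster the ratios were above 1 with wide intervals, 2.04 (0.559 to 16.9) for Gabra2 on 2 WT UMIs and 1.12 (0.563 to 2.603) for Grin2c on 8 WT UMIs. Grm3 was at 0.866 and 0.970 in the Agt/Slc6a11 and Hsd11b1 clusters and at 0.538 (0.377 to 0.750) in the Tnc cluster.

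Gria2 ran the other way within clusters. Its ratio was 1.26 (1.20 to 1.33) in the Agt/Slc6a11 cluster, 1.22 (1.15 to 1.30) in the Hsd11b1 cluster, 1.14 (1.01 to 1.28) in the Tnc cluster and 1.77 (1.34 to 2.41) in the Lcn2 cluster, the last on 48 WT UMIs. In 60TM cells Gria2 stood at 591.1 CPM in the Lcn2 cluster, against 1538, 1205 and 921.9 in the Agt/Slc6a11, Hsd11b1 and Tnc clusters. Gabrb1 had ratios of 1.08, 1.18, 1.51 and 2.20 in the Agt/Slc6a11, Hsd11b1, Tnc and Lcn2 clusters, all with intervals above 1, the last on 34 WT UMIs. Grm5 was at 28.8 CPM in 60TM and 16.9 in WT in the Agt/Slc6a11 cluster, a ratio of 1.70 (1.13 to 2.57).

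Leaving out the coarser cluster of mostly 60TM astrocytes (19 WT and 918 60TM cells) gave 2 of 16 members at least 1.5-fold lower (3.66% of all genes), Grin3a at 0.438 and Gabra2 at 0.614, and 2 higher, Grm5 and Gabrg3. The WT shares of the finer clusters were also applied to both libraries, using the 3 clusters with at least 50 cells in each library. The Lcn2 cluster (16 WT and 867 60TM cells) was thus left out. With these shares 1 of 17 was lower (4.01% of all genes), Gabra2 at 0.635. Grm5 then stood at 1.95 and Gabrg3 at 2.06. Gria1 turned from 0.586 to 1.28. Both alternatives were chosen after seeing the data.

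**Figure D4:**
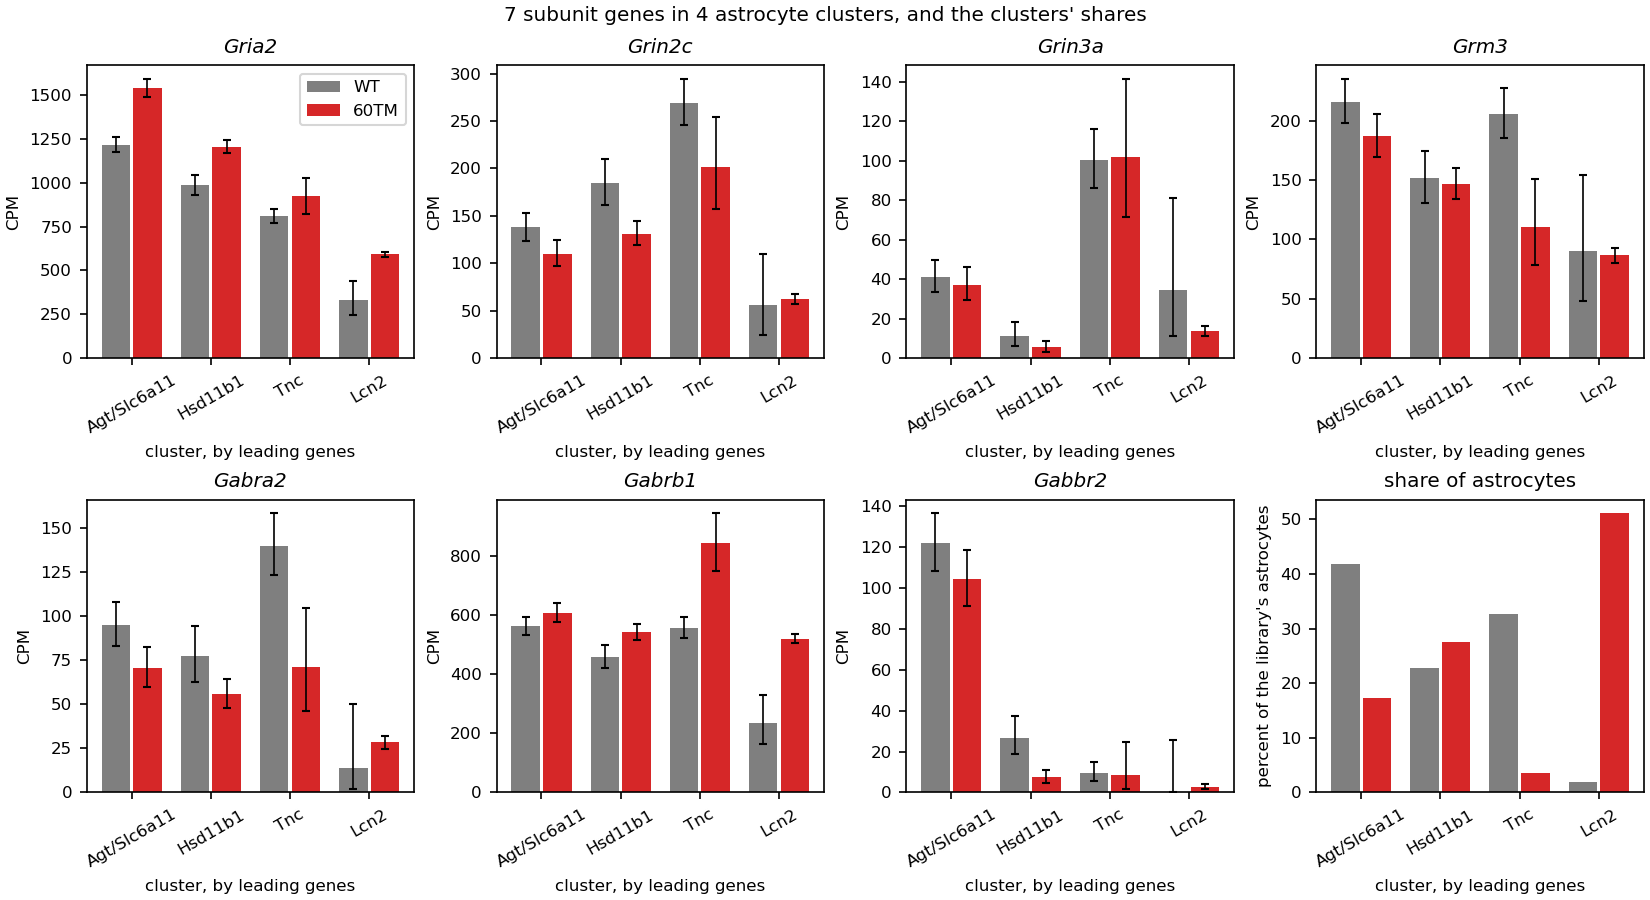
Levels of 7 subunit genes (CPM, bars with 95% counting intervals) in 4 astrocyte clusters, WT in grey and 60TM in red, and the share of each library's astrocytes in those clusters (last panel). Gabbr2 is at 121.9 and 104.3 CPM in the Agt/Slc6a11 cluster, which holds 41.8% of WT and 17.2% of 60TM astrocytes.

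Other genes of glutamate and GABA receptor signalling were counted in astrocytes from a list of 66 (auxiliary subunits, scaffolds, related receptors and genes downstream of metabotropic receptors). Of the 43 genes that reached 100 UMIs, 6 had a level in 60TM 1.5-fold or more above WT and 4 were as far below it, beside the 5.41% and 6.44% of all genes given above. Higher with the nearest bound farthest from 1 were Neto2, an auxiliary kainate receptor subunit (16.8 CPM in 60TM, ratio 2.74, 1.92 to 4.03), Shank1 (ratio 2.35, 1.40 to 4.19), Cnih2, an AMPA receptor chaperone (2.07, 1.38 to 3.19), and the calcium release channel Itpr1 (1.90, 1.25 to 2.99). The 4 lower ones were Rgs7, which shortens G-protein signals (26.9 CPM in WT and 13.6 in 60TM, ratio 0.506, 0.408 to 0.629), the GABA-B receptor partners Kctd12 (0.623) and Kctd12b (0.630), and Plcb3 (0.660).

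In OPCs, none of the 10 members counted differed 1.5-fold in either direction, as 4.76% of 4492 genes did, so that the count lies near the background. Gria3 went from 411.1 to 302.2 CPM, a ratio of 0.735 (0.633 to 0.854). The intervals of 8 of the 10 included 1, among them Grin3a, Grm5 and Gria4, with no share over all genes given beside this count. In radial glia-like cells, which share markers with astrocytes, none of 9 members was 1.5-fold lower (4.25% of genes) or higher (3.99% of genes). There Gabra4 was at 0.689 (0.535 to 0.893) and Grm3 at 0.678 (0.520 to 0.889). The 9 leave out the members with the lowest ratios in astrocytes, which had too few UMIs in radial glia-like cells. Gabra2 was at 0.480 (0.266 to 0.876) on 22 and 29 UMIs and Grin2c at 0.066 (0.007 to 0.303) on 11 and 2. Grin3a was at 0.033 (0.0008 to 0.228) on 11 and 1 UMIs, and Gabbr2 at 1.82 (0.388 to 17.1) on 2 and 10.

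In oligodendrocytes, 2 of 10 members were at least 1.5-fold higher in 60TM (2.41% of genes) and none was 1.5-fold lower (2.10% of genes). Gabrr2 encodes a rho subunit, which forms slowly desensitising GABA channels best known from the retina. It stood at 6.70 CPM (5.69 to 7.84, 156 UMIs) in WT and 16.3 (14.2 to 18.5, 225 UMIs) in 60TM, a ratio of 2.43 (1.97 to 3.00). A Gabrr2 UMI was found in 9.52% of WT and 22.5% of 60TM oligodendrocytes, and after thinning each cell to 2000 UMIs in 1.42% and 2.77%. In microglia the shares were 0.143% and 0.121% before thinning and 0.0966% and 0.0812% after it. The ratio was above 1 in each of the 3 oligodendrocyte clusters with at least 50 cells in both libraries: 2.33 (1.84 to 2.95) in the cluster led by Gm48678 and Ptgds, 1.83 (1.07 to 3.14) in the Il23a cluster, and 4.40 (1.27 to 17.1) in the Klk6 cluster on 5 and 8 UMIs. In a smaller cluster led by Dnm3os (36 WT and 23 60TM cells) it had 3 UMIs in WT and 0 in 60TM. Gabrr2 had 0 UMIs in committed precursors of both libraries.

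The other gene counted as higher, Gabrb1, was at 2.32 and 4.19 CPM in oligodendrocytes. Its microglial levels were 2.55 and 4.04 CPM. After subtraction of free RNA its ratio was 0.201, so that its call ended. Grik2 was at 28.9 and 39.8 CPM, a ratio of 1.38 (1.23 to 1.55), Grik1 at 11.8 and 7.88 (0.667, 0.529 to 0.835) and Grm3 at a ratio of 0.826 (0.773 to 0.882).

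**Figure D5:**
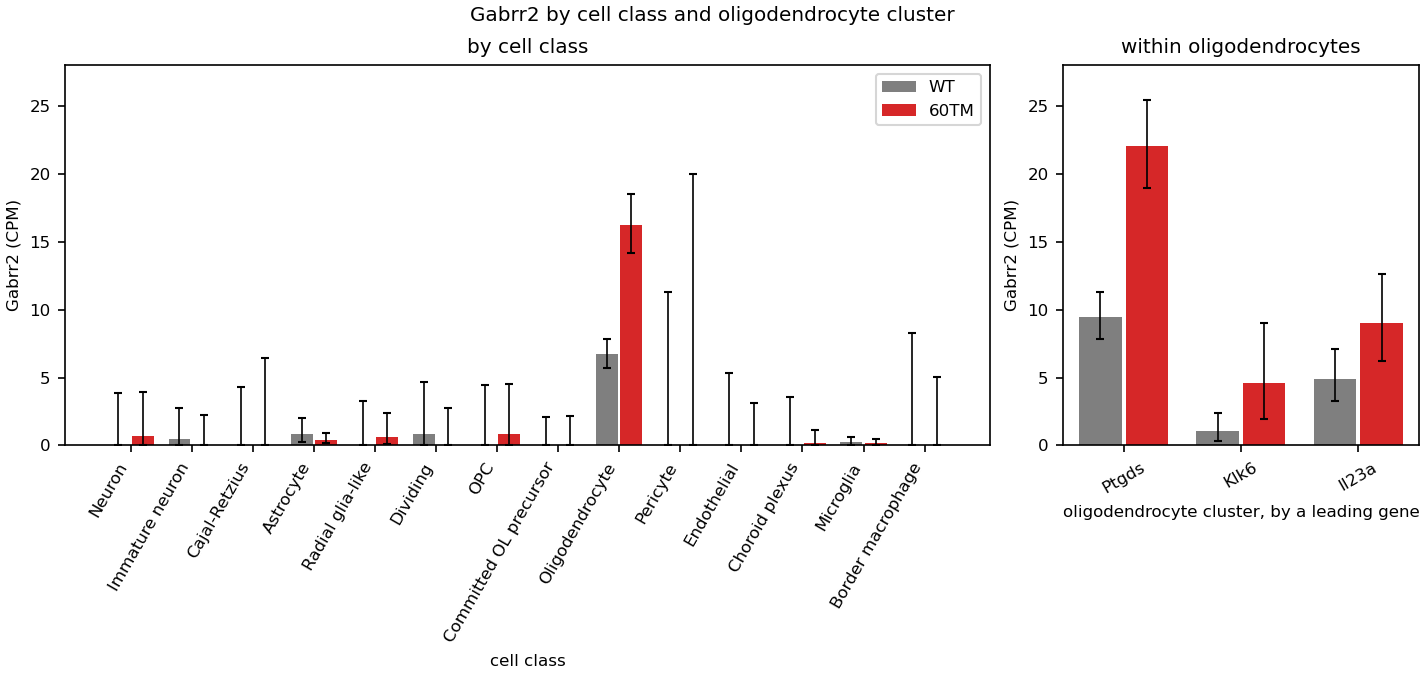
Gabrr2 in CPM with 95% counting intervals, WT in grey and 60TM in red, by cell class (left) and within the 3 larger oligodendrocyte clusters (right). Oligodendrocytes stand at 6.70 CPM in WT and 16.3 in 60TM; upper bounds are wide in the small classes.

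In neurons 5 of 26 members were at least 1.5-fold lower in 60TM (4.97% of genes), among them Gabrg3 at 0.485 (0.368 to 0.637), Gria4 at 0.527 (0.381 to 0.727) and Grik2 at 0.665 (0.555 to 0.796). None was 1.5-fold higher (3.62% of genes). The mix of neurons differed: summed interneuron markers were 4912 CPM in WT and 1200 in 60TM, and 42.0% of WT and 47.3% of 60TM neurons had a Gad1 or Gad2 UMI. These cell shares do not give the weight of such cells in the pooled levels. Neurons without a Gad UMI held 913 of 3437 Gria2 UMIs in WT and 2473 of 4669 in 60TM. Gria2 in them was 5087 and 3848 CPM, against 3569 and 3275 in all neurons. Without the cells with a Gad1 or Gad2 UMI, 1 of 16 was lower (8.14% of genes), Grik2 at 0.604. Then 2 were higher (27.3% of genes), Gabra5 at 2.85 (1.49 to 6.12) and Gabbr2 at 1.66 (0.970 to 3.02). Gria4 then turned to 1.54 (0.636 to 4.48), on 6 WT UMIs. This alternative was chosen after seeing the data.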

How the data were processed

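The deposited matrices hold raw UMI counts per gene and barcode; per the submitters' processing notes they were made with Cell Ranger 5.0.0 on GRCm38, and nothing was normalized by the authors. The gene and barcode tables hold names only. Whether intronic reads were counted, and the annotation release, are not given in the sources used here. All 37 members matched GENCODE M21 by identifier.

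Barcodes with under 500 genes or over 15% mitochondrial UMIs were removed, then 377 (WT) and 610 (60TM) doublets, the highest Scrublet scores up to a rate set by the number of barcodes. Clustering used scanpy 1.11.5: 2000 variable genes without subunit genes, 30 components, 15 neighbours, Leiden resolution 1 (finer: 2). A class needed 3 markers at a log2 ratio of 1 and in 20% of cells. This naming rule was set after clusters were seen. Unnamed clusters (371 WT and 840 60TM cells) were left out. Members and lists were chosen with earlier results of these data known.

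Ratios have conditional-binomial, levels Poisson and shares Clopper-Pearson intervals (scipy 1.17.1); the code was tested on simulated data. The text names each astrocyte member with at least 100 UMIs, up to 6 leading members of each other set, and the signalling genes whose bound lies farthest from 1 (4 per direction). Some members and a sequence are not reported here by name, though the counts include those members. Other named genes were chosen after their values were seen.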

Additional observations from a re-analysis of the deposited data

How the results depend on the processing

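With 1 library per genotype, leaving out a replicate is not possible, and 60TM and library cannot be told apart. No paired analysis was possible because each genotype has 1 library.

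The 6 lower members of astrocytes became 2 of 16 without the cluster of mostly 60TM cells, 2 of 17 with WT cluster shares at resolution 1 (a single cluster had 50 cells in each library) and 1 of 17 at resolution 2, and 10 of 18 with the unnamed astrocyte-marker clusters added. The 2 higher ones became 1 with classes by marker score, with those unnamed clusters, or without cells with a neuron marker UMI, 0 when thinned to 2000 UMIs or at 2-fold, and 4 of 24 at 20 UMIs. Resolution 2 shares and the removals of the mostly 60TM cluster, of cells with a neuron marker and of Gad1 or Gad2 cells were chosen after seeing the data. Dropping clusters with 10% of 1 library and under 1% of the other removed 0 clusters. Of the member ratios recomputed, 185 stayed within their interval, 54 moved outside it, and Gria1 turned to 1.28 with WT cluster shares at resolution 2. Those that moved include ratios that crossed 1. The highest ratios over the settings were 1.32 for Gria2, 1.14 for Grin2b and 1.12 for Grik5, all below 1 in the main setting. Gabrb1, above 1 there, fell to 0.981 at its lowest.

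The Gria2 part of AMPA UMIs in WT astrocytes moved to 97.2% with no doublets removed, 97.1% with more removed, 97.0% with subunit genes clustered, 96.9% at resolution 2 and 95.6% with the unnamed clusters. In 60TM it moved to 98.0% with those, 98.6% without cells with a neuron marker and 97.8% at WT shares, and in 60TM OPCs to 73.2% as a mean over cells.

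In other classes, 56 counts stayed and 14 moved. Thinning gave 1 lower in OPCs, 0 lower in neurons and 1 higher in oligodendrocytes. Oligodendrocytes had 1 lower with no doublets removed, under the stricter mitochondrial limit or by marker score, and 1 higher under that limit or with free RNA subtracted (Gabrb1 turned to 0.201). Radial glia-like cells had 1 lower by marker score. Neurons had 1 lower and 2 higher without Gad1 or Gad2 cells, and 1 higher with more doublets removed, free RNA subtracted or a mean over cells. Their ratios turned for Gria4 (1.54 by marker score and without Gad cells, 1.06 thinned, 1.41 as a mean over cells), Grik2 (1.23 thinned) and Gabrg3 (1.47 and 1.01, with more doublets removed and by marker score). The Neuron class was unnamed with no doublets removed and under the stricter mitochondrial limit, so these give no value. The Gabrr2 ratio in oligodendrocytes ranged from 1.95 to 2.69. Except where a setting's own construction shows it, the cause was not tested.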
